A study of Arabidopsis thaliana with 12 samples.

Results

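Transcripts were compared between condition H and condition L in leaves of the Arabidopsis line ape2, across all probe sets of a whole-genome oligonucleotide array. The comparison takes 6 of the 12 arrays of the series: 3 of ape2 in condition H and 3 of ape2 in condition L, chosen by the line and the condition code in the sample titles. The other 6 arrays hold 3 of Ws-2 in condition H and 3 of Ws-2 in condition L, and serve here only as the matching contrast in the wild type. All 12 carry biotin-labelled total RNA from mature, unshaded rosette leaves at developmental stage 3.7. The accession Ws-2 is the genetic background of ape2, a single T-DNA insertion line, and the title of the series names the mutant as one of TPT. The letters H and L are used as names, because the titles do not spell them out. The labels name no separate plants or pots behind the 3 arrays of a group, so the p-values rest on a spread between arrays that may be technical.

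TPT, the triose phosphate/phosphate translocator, sits in the inner envelope membrane of the chloroplast and lets triose phosphates leave for the cytosol while phosphate enters. In its absence a leaf can keep fixed carbon in the chloroplast as starch and export it as sugars released by starch breakdown. Cytosolic sugars and the redox state of the chloroplast both feed signals to gene expression in leaves, and the comparison asks which transcripts respond to the condition in a line without this export route. The annotation names no probe set for TPT, and the line was not checked on that transcript. The XPT transcript (AT5G17630), which encodes a xylulose 5-phosphate translocator of the same envelope, was the single measured member of its list. Its signal was 308, 294 and 281 in ape2 H, against 314, 282 and 300 in ape2 L, with a log2 change of -0.02 ± 0.08 (SE, adjusted p = 0.939).

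The values are MAS5 signals on a linear scale, and changes are given as log2(signal + 10) in H minus L, with standard errors and adjusted p-values from limma fitted to all 12 arrays. The offset of 10 makes the change of a dim transcript look smaller than its ratio of signals. The median signal of an array was 36.7, 38.1 and 37.4 in ape2 H, against 39.7, 40.4 and 38.4 in ape2 L. Probe sets reaching a signal of 20 made up a share that ranged from 64.4% to 65.8% in ape2 H and from 66.1% to 67.8% in ape2 L. RNA integrity was read from actin, whose 3' over 5' signal ratio averaged 2.41 ± 0.12 in ape2 H and 2.73 ± 0.21 in ape2 L (SD, n = 3). For GAPDH the ratio averaged 1.77 ± 0.05 in ape2 H and 1.87 ± 0.20 in ape2 L (SD, n = 3). The part of these ratios in the results was not tested. Quantile normalization gives every array the same distribution of signals and does not address these ratios. With it 563 of the 647 calls remained. Pearson correlations of log2 values ranged from 0.968 to 0.980 between ape2 H and ape2 L arrays and from 0.975 to 0.985 within ape2 groups. On the next components after the leading one the second array of each group stood apart: ape2 L 2 scored 0.78 on component 2 against 16.0 and 14.5 for the other ape2 L arrays, and ape2 H 2 scored 9.14 on component 3 against -9.63 and -15.6. Counts are therefore also given without both second ape2 arrays. Only 4 of 23 cell type markers had a named probe set. The mesophyll marker RCA, Rubisco activase, had a mean signal of 4028 in ape2 H and 3865 in ape2 L (log2 change 0.06, adjusted p = 0.809). The markers for guard cells (FAMA), root hairs (EXPA7) and cell division (AUR1) had log2 changes of -0.02, -0.13 and -0.02, with adjusted p-values from 0.834 to 0.965. In whole leaves, fewer cells of a type and less RNA per cell cannot be told apart.

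Of 16121 probe sets tested, 647 differed between ape2 H and ape2 L at an adjusted p under 0.05, which is 4.01%. Of these, 288 were higher in H (1.79% of those tested) and 359 were lower (2.23%). On 646 of the 647 the 3 H arrays and the 3 L arrays did not overlap, against 21.8% of all tested probe sets. A small p-value favours such separation, and it was required of the genes named as largest changes, so it is no added evidence. The same holds for every called gene described below as having separate groups. Among the 9025 tested probe sets with 1 named gene, 296 were called, or 3.28%, with 140 higher (1.55%) and 156 lower (1.73%). These shares are the background for all counts of list members below. Large changes were rare: 45 of the 647 reached a factor of 2 on the scale used, 19 upward and 26 downward, and 14 of the 296 with 1 named gene did, 6 upward and 8 downward. The median change over all tested probe sets was -0.03, and the median standard error was 0.13. Without both second ape2 arrays 425 probe sets were called, 359 of them among the 647. The count fell to 366 without ape2 L 1, 398 without ape2 L 3 and 374 without ape2 H 3.

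**Figure D1:**
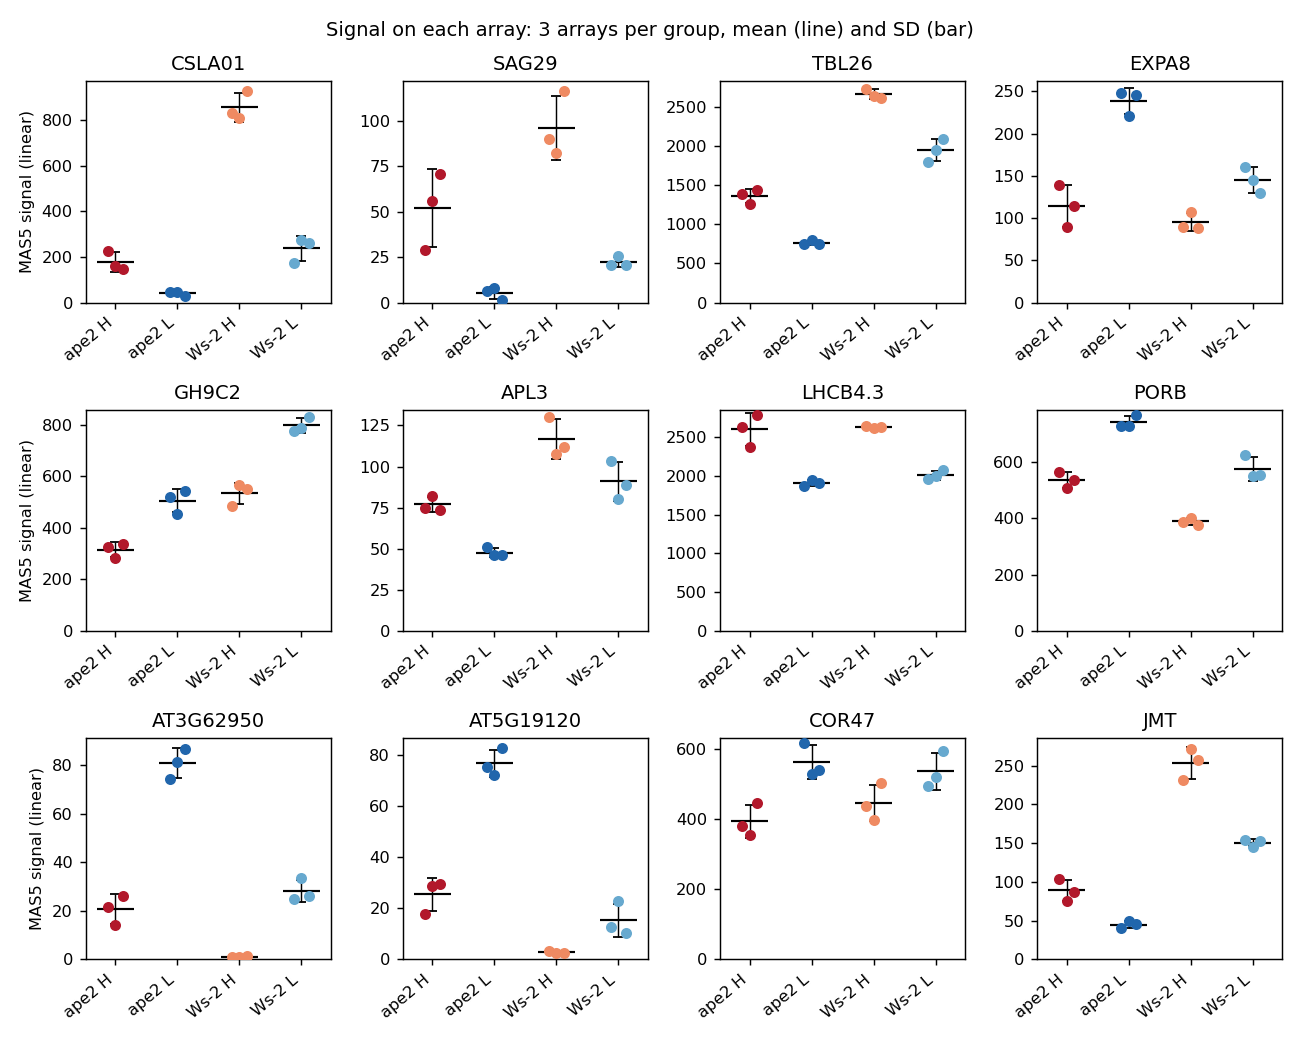
Signals on a linear axis for 12 genes, with 1 point per array, a line at the group mean and a bar of 1 SD (n = 3). In every panel the 3 ape2 H arrays lie apart from the 3 ape2 L arrays, and the Ws-2 H and Ws-2 L arrays stand to their right.

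Cell wall genes were among both the largest rises and the falls. CSLA01, a member of the cellulose synthase-like A family whose proteins make mannan backbones, had signals of 226, 159 and 147 in ape2 H, against 46.95, 47.9 and 30.04 in ape2 L. It rose by 1.86 ± 0.19 (adjusted p = 1.79e-04), and the lowest H array lay far above the highest L array. TBL26, of the TRICHOME BIREFRINGENCE-LIKE family that acetylates wall polysaccharides, had signals of 1386, 1258 and 1437 in ape2 H, against 746, 794 and 748 in ape2 L. Its change was 0.82 ± 0.07 (adjusted p = 9.78e-06), with tight groups far from each other. AT1G57590, a pectin acetylesterase, rose to 146, 118 and 153 in ape2 H, against 61.0, 68.7 and 53.7 in ape2 L (1.07 ± 0.13, adjusted p = 1.82e-04). The other 7 tested probe sets with a CSL symbol all had negative changes and were not called. Of 19 tested with a TBL symbol 1 was called, with a median of -0.13. Members that carry only a locus code or have no named probe set are not covered.

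The wall genes that fell act mostly in loosening the wall and in cutting its polymers. EXPA8, an expansin, had signals of 140, 89.5 and 115 in ape2 H, against 248, 221 and 246 in ape2 L, a fall of 1.01 on the log2 scale (SE 0.13, adjusted p = 3.12e-04). GH9C2, an endoglucanase of glycosyl hydrolase family 9, had signals of 328, 283 and 337 in ape2 H, against 519, 455 and 543 in ape2 L (-0.66 ± 0.09, adjusted p = 4.04e-04). The groups did not overlap for either gene. All 7 tested GH9 probe sets had negative changes, from -0.66 to -0.11, and GH9C2 was the called one. Of 13 expansins tested, 2 fell and 0 rose, with a median of -0.12. The second faller, EXPA15, had signals of 91.2, 71.7 and 77.6 in ape2 H, against 101, 103 and 119 in ape2 L (-0.39, adjusted p = 0.0484). Its call was lost without any single array except ape2 H 1, including each Ws-2 array, with adjusted p-values up to 0.176 over the alternatives.

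Pectate lyases, which cleave unesterified pectin, were gathered into a list after the calls had been seen, so the count is a description. Of 16 tested, 5 fell (31.2%, against 1.73% of all tested probe sets with 1 named gene) and 0 rose. Changes were negative in 13, and the median was -0.20. The brightest change was that of AT4G24780, with signals of 896, 734 and 899 in ape2 H, against 1254, 1204 and 1193 in ape2 L (-0.53 ± 0.08, adjusted p = 0.00151). AT5G63180 had 232, 170 and 216 in ape2 H, against 334, 368 and 366 in ape2 L (-0.77 ± 0.12, adjusted p = 0.00229). AT5G48900 changed by -0.48 (adjusted p = 0.00223) and AT1G04680 by -0.49 (0.00851), and AT3G07010 by -0.39 (0.0278). In all 5 the H arrays lay below the L arrays, a separation shared by nearly all calls. Without both second ape2 arrays the count of falls was 3, and AT1G04680 was among those lost (adjusted p = 0.0724). The call of AT3G07010 was also lost without ape2 L 1, ape2 H 2, ape2 L 3 or ape2 H 3 (adjusted p up to 0.109).

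Among pectin methylesterases, acetylesterases and polygalacturonases, a list drawn up in the same way, 1 of 24 tested rose, AT1G57590, and 5 fell. The median was -0.16. AT3G10720, a pectin methylesterase, had 94.5, 64.0 and 88.5 in ape2 H, against 133, 132 and 142 in ape2 L (-0.67 ± 0.13, adjusted p = 0.00967, and 0.0564 without both second ape2 arrays). ATPMEPCRB (AT4G02330), a further methylesterase, was at 61.1, 58.3 and 61.7 in ape2 H, against 86.7, 93.7 and 118 in ape2 L (-0.63, adjusted p = 0.0119), and its call was lost without ape2 L 3 (adjusted p up to 0.0606). AT4G23820, of the polygalacturonase family, changed by -0.55 (adjusted p = 0.0105, and 0.0518 without ape2 L 3), and its relatives AT1G48100 and AT3G16850 by -0.41 (0.013) and -0.29 (0.0455). AT1G48100 was not called (adjusted p up to 0.0546) once ape2 L 1 or ape2 L 3 was left out. AT3G16850 lost its call without any 1 array except Ws-2 L 2 (up to 0.21). The number of falls in this list was 1 without ape2 L 3, 3 without ape2 L 1 and 2 without both second ape2 arrays.

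Sugar transporters of the SWEET family, which let sugars pass membranes down their gradient, moved in opposite directions. SAG29, also known as SWEET15, rose to 28.8, 56.1 and 70.9 in ape2 H, against 6.45, 7.86 and 1.51 in ape2 L, a change of 1.98 ± 0.23 (adjusted p = 1.99e-04). Its L values are dim, so the size of the change depends on the offset, and it was 3.17 with an offset of 1 and 1.14 with an offset of 32. SWEET13, a sucrose exporter of leaf veins, had 115, 93.9 and 115 in ape2 H, against 169, 144 and 172 in ape2 L (-0.54 ± 0.10, adjusted p = 0.00588). The remaining 12 of 14 tested SWEET probe sets were not called, and the family median was -0.12. SWEET11, another member of the family, had a log2 change of -0.20 (adjusted p = 0.0998).

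In starch synthesis 1 of 3 tested genes rose, APL3, which encodes a large subunit of the enzyme that commits carbon to starch. Its signals were 74.9, 82.3 and 73.7 in ape2 H, against 50.9, 46.3 and 46.0 in ape2 L (0.59 ± 0.11, adjusted p = 0.00519). The other 2 tested genes of starch synthesis were not called, APL4 at -0.01 and the branching enzyme SBE2.2 at 0.07. Of the 2 tested genes of starch breakdown neither was called. PWD, the phosphoglucan water dikinase, had a change of 0.30 (adjusted p = 0.0624), and DPE1, a plastid disproportionating enzyme, 0.23 (0.351). In the list of sucrose synthesis, sugar transport and invertases, 2 of 11 tested rose, SAG29 and AT1G62660, a vacuolar invertase. The invertase was at 47.1, 58.3 and 47.8 in ape2 H, against 31.1, 38.1 and 22.6 in ape2 L (0.60 ± 0.16, adjusted p = 0.0492), and its call was lost in 16 of 23 alternatives, among them the removal of any single array except Ws-2 H 3 or ape2 L 2. The tonoplast sugar transporters TMT1 and TMT2 had changes of -0.19 and 0.07 and were not called.

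Among transcripts repressed by sugar or raised by carbon starvation, 1 of 10 tested rose and 1 fell, with a median of 0.07. AT3G26510, a PB1 domain protein, had 522, 521 and 600 in ape2 H, against 338, 344 and 286 in ape2 L (0.75 ± 0.11, adjusted p = 0.00131). AT5G19120, of the aspartyl protease family, moved the other way and was at 18.0, 28.8 and 29.7 in ape2 H, against 75.5, 72.2 and 82.8 in ape2 L (-1.31 ± 0.20, adjusted p = 0.00123). Both groups of 3 were well separated. FLZ proteins are adaptors that bind the energy-sensing kinase SnRK1. Of 11 tested in a list drawn up after the calls had been seen, 3 rose and 0 fell, with a median of -0.02. The rises are 27.3%, against 1.55% of all tested probe sets with 1 named gene. AT3G22550 rose to 128, 171 and 137 in ape2 H, against 98.0, 65.9 and 53.4 in ape2 L (0.94 ± 0.16, adjusted p = 0.00382). AT1G22160 was at 103, 115 and 106 in ape2 H, against 58.1, 57.3 and 44.2 in ape2 L (0.91 ± 0.12, adjusted p = 4.76e-04). AT1G78020 was at 526, 508 and 530 in ape2 H, against 339, 373 and 361 in ape2 L (0.53 ± 0.07, adjusted p = 4.49e-04). These 3 rises were also called without both second ape2 arrays. Autophagy genes, which include the ATG8 proteins of the autophagosome membrane, had positive changes in all 11 tested probe sets, from 0.02 to 0.28, and 0 were called, with a median of 0.08.

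In the photosynthetic apparatus few named transcripts were called. LHCB4.3, a variant of the minor antenna protein CP29 of photosystem II, had signals of 2631, 2372 and 2789 in ape2 H, against 1874, 1949 and 1909 in ape2 L (0.44 ± 0.06, adjusted p = 0.0011). PORB, a light-dependent protochlorophyllide oxidoreductase of chlorophyll synthesis, fell to 566, 506 and 536 in ape2 H, against 729, 728 and 767 in ape2 L (-0.46 ± 0.07, adjusted p = 0.00146). The groups lay apart in both. None of the other 7 tested chlorophyll genes was called, and 0 calls were made among 5 nuclear photosystem genes, 2 light-harvesting antenna genes, 3 Calvin-Benson cycle genes and 5 photorespiration genes, whose medians ranged from 0.01 to 0.14. Few members of these lists had a named probe set, so most of each pathway is not covered. SPPA, a light-induced protease of the thylakoid chosen after its values were seen, rose to 306, 284 and 311 in ape2 H, against 182, 197 and 217 in ape2 L (0.58 ± 0.08, adjusted p = 6.40e-04).

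Genes of the plastid genome were represented more fully. Of 43 tested plastid-encoded photosynthesis probe sets 0 were called, 34 had positive changes and the median was 0.06, with a range from -0.25 to 0.44. Of 26 for plastid gene expression and other functions 0 were called, 16 were positive and the median was 0.07. Averaged over the photosynthesis probe sets after centring each on its mean over 12 arrays, the log2 level was 0.06, -0.10 and 0.14 in ape2 H, against -0.13, 0.03 and 0.04 in ape2 L. The groups overlapped. ape2 H 2 and ape2 L 1 were the lowest of their groups.

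Proteins of plastoglobules, lipid droplets on the thylakoid that store plastoquinol and tocopherol, formed a list drawn up after the calls had been seen. Of 17 tested, 4 rose and 0 fell, 16 had positive changes and the median was 0.24. AT2G41040, a methyltransferase, had 201, 224 and 209 in ape2 H, against 175, 124 and 140 in ape2 L (0.52 ± 0.11, adjusted p = 0.0138). AT1G06690, an aldo-keto reductase, had 564, 437 and 466 in ape2 H, against 356, 346 and 377 in ape2 L (0.43 ± 0.09, adjusted p = 0.0161). AT3G26070, a fibrillin whose probe set can also report a close relative, changed by 0.29 (adjusted p = 0.0302), and AT3G24190, an ABC1-type kinase, by 0.27 (0.0362). All 4 had H arrays above the L arrays, a separation shared by nearly all calls. The calls were fragile: on leaving out any 1 ape2 array 1 or 2 rises were called, without both second ape2 arrays 1 was called, and the highest adjusted p over the alternatives ranged from 0.0745 to 0.127. On leaving out 1 array the median of the list ranged from 0.18 to 0.28.

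**Figure D2:**
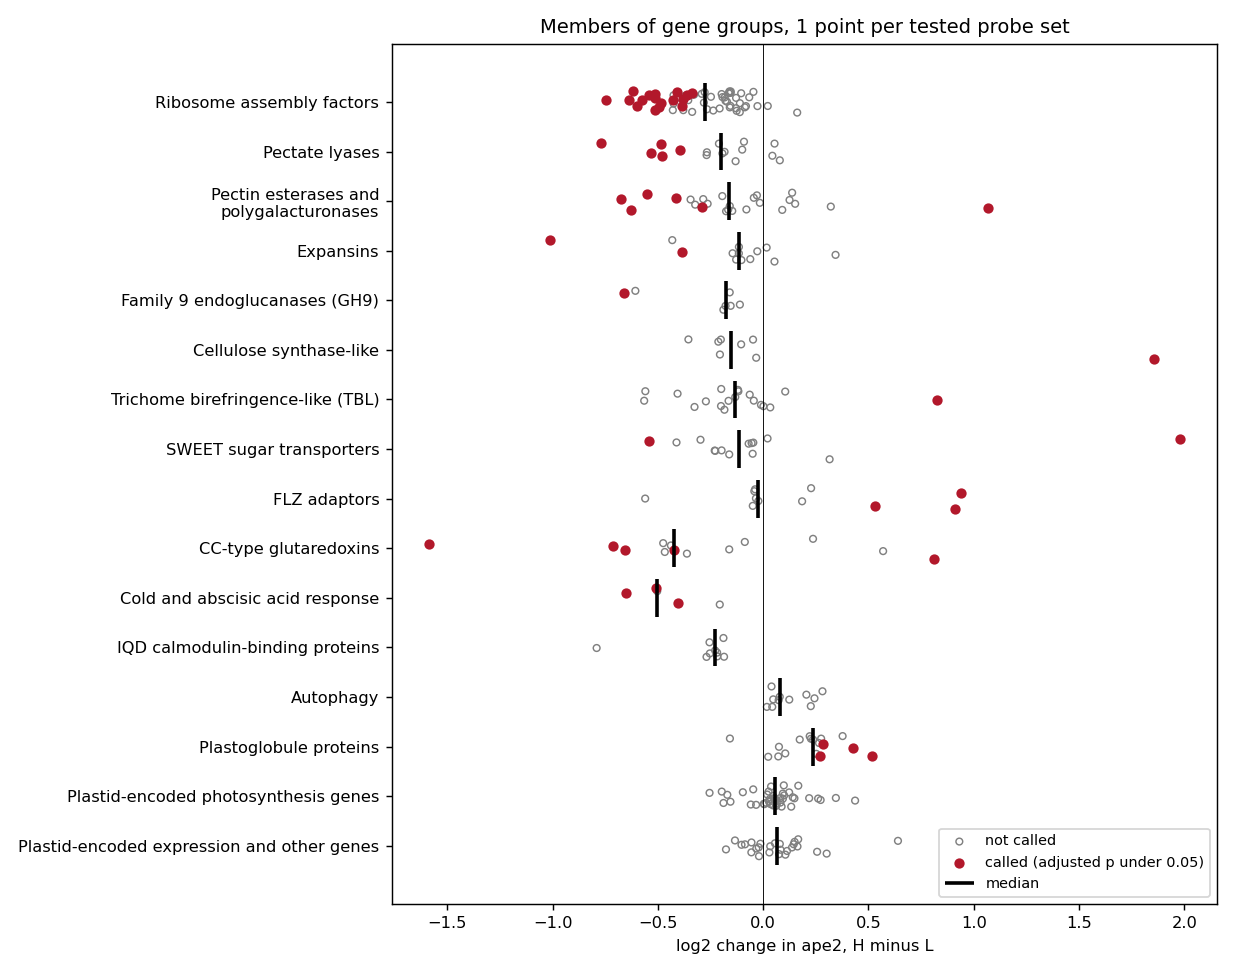
The log2 change in ape2, H minus L, for each tested probe set of 16 gene groups, with filled points for calls at an adjusted p under 0.05, open points for the others and a bar at the group's median. The ribosome assembly factors lie left of 0 in 55 of 57 cases and the plastoglobule proteins right of 0 in 16 of 17. CSLA01, TBL26 and SAG29 are each the single called rise among the tested members of their family.

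Factors that assemble ribosomes in the nucleolus trim and fold ribosomal RNA. Among the lists examined theirs had the most tested probe sets and, by number, the most calls in a single direction. The list was drawn up after the calls had been seen. Of 57 tested probe sets for 56 genes, 17 fell and 0 rose, or 29.8%. Of all tested probe sets with 1 named gene 1.73% fell. Negative changes were found in 55 of the 57, with a median of -0.28 against -0.03 over all tested probe sets. AT3G58660, of the ribosomal L1 family, had 43.3, 42.8 and 44.1 in ape2 H, against 70.3, 72.4 and 72.7 in ape2 L (-0.62 ± 0.11, adjusted p = 0.00468). PRH75, a nucleolar DEAD-box RNA helicase, was at 160, 128 and 141 in ape2 H, against 198, 205 and 219 in ape2 L (-0.51 ± 0.09, adjusted p = 0.00299). AT3G03920, a GAR1 protein of the particles that modify ribosomal RNA, was at 227, 197 and 213 in ape2 H, against 292, 270 and 350 in ape2 L (-0.49 ± 0.10, adjusted p = 0.00889). The groups did not overlap in any of these 3, as for nearly all calls. AT1G18850 had a larger change of -0.64 ± 0.11 (adjusted p = 0.00452).

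Further fallers cover both ribosomal subunits. AT3G22660, an EBP2 homologue of large subunit assembly, was at 28.6, 26.6 and 23.2 in ape2 H, against 53.9, 43.8 and 54.1 in ape2 L (-0.74 ± 0.15, adjusted p = 0.00935). AT5G14520, the pescadillo homologue, changed by -0.41 (adjusted p = 0.0242), and both probe sets of AT1G79150, a NOC3 homologue, fell, by 0.51 (adjusted p = 0.0275) and 0.34 (0.0372) on the log2 scale. For the small subunit, AT3G06530, a UTP10-like HEAT-repeat protein, changed by -0.38 (adjusted p = 0.0389) and AT3G13230, a PNO1-like KH protein, by -0.58 (0.011). Averaged over the 57 probe sets after centring each on its mean over 12 arrays, the log2 level was -0.05, -0.19 and -0.09 in ape2 H, against 0.19, 0.06 and 0.30 in ape2 L. The second array was the lowest in each group, and ape2 L 3 was the highest of all. The number of falls was 5 without ape2 L 3, 8 without ape2 H 2, 9 without ape2 H 3, 11 without ape2 L 1, 10 without both second ape2 arrays and 12 with quantile normalization. The number of negative changes stayed between 52 and 56 on leaving out any 1 ape2 array.

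**Figure D3:**
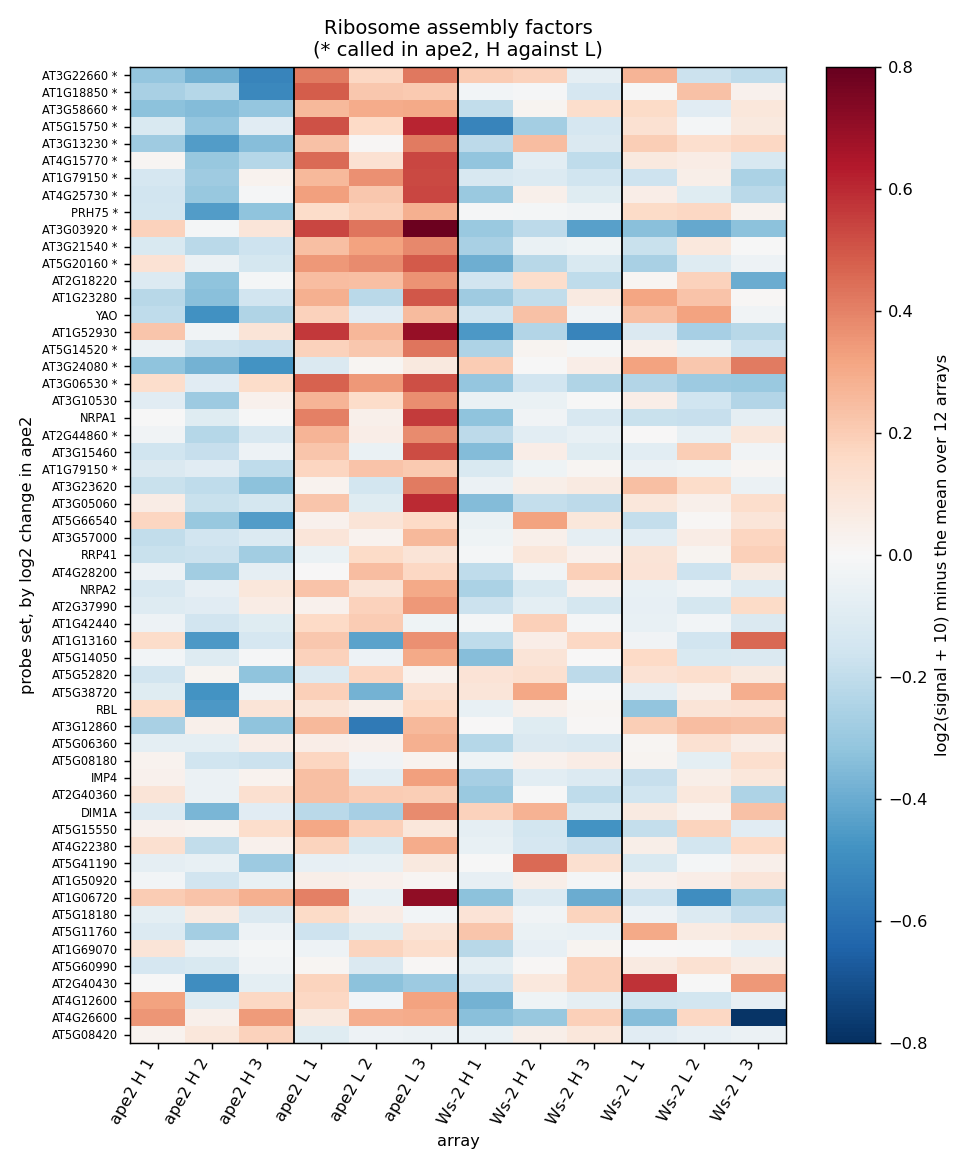
Each row is a tested probe set of a ribosome assembly factor and each column an array, coloured by log2(signal + 10) minus the row's mean over 12 arrays, with values beyond the scale in its end colours and an asterisk for a call in ape2. The upper rows are mostly blue in the 3 ape2 H arrays and red in the 3 ape2 L arrays, most deeply in ape2 L 3, and pale in most Ws-2 arrays.

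Glutaredoxins of the plant-specific CC type, small thiol proteins that also bind TGA transcription factors, were listed after the calls had been seen. Of 13 tested, 4 fell and 1 rose, with a median of -0.43. The calls are 38.5%, against 3.28% of all tested probe sets with 1 named gene. AT3G62950 had 21.6, 14.1 and 26.3 in ape2 H, against 74.6, 81.4 and 86.7 in ape2 L, a change of -1.58 ± 0.17 (adjusted p = 7.28e-05) and 1 of the deepest falls with a named gene. AT5G18600, a bright member, had 1003, 1021 and 1034 in ape2 H, against 1374, 1338 and 1404 in ape2 L (-0.42 ± 0.07, adjusted p = 0.00224). AT3G62930 was at 29.2, 27.4 and 28.05 in ape2 H, against 50.2, 49.1 and 51.3 in ape2 L (-0.66 ± 0.14, adjusted p = 0.0128, and 0.0718 without both second ape2 arrays). AT4G15690 changed by -0.71 (adjusted p = 0.0383), a call lost (adjusted p up to 0.152) without ape2 L 1, ape2 H 2, ape2 L 3, ape2 H 3, Ws-2 L 2, Ws-2 L 3 or Ws-2 H 3. AT4G33040 went the other way, with 78.7, 125 and 77.6 in ape2 H, against 42.9, 61.6 and 41.1 in ape2 L (0.81 ± 0.17, adjusted p = 0.0145), and its call was lost (up to 0.0687) without ape2 H 2, ape2 L 1 or ape2 L 3. Without both second ape2 arrays 2 falls and 1 rise were called.

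The HHO and NIGT1 proteins are MYB-like repressors in nitrate and phosphate signalling. Of 3 tested, 2 fell, in a list also drawn up after the calls had been seen. The falls are 66.7%, against 1.73% of all tested probe sets with 1 named gene. AT1G25550 had 73.6, 84.6 and 82.0 in ape2 H, against 140, 166 and 159 in ape2 L (-0.87 ± 0.11, adjusted p = 2.02e-04). AT1G68670 had 146, 149 and 171 in ape2 H, against 237, 276 and 232 in ape2 L (-0.64 ± 0.09, adjusted p = 7.97e-04). Both were also called on leaving out any 1 array. AT5G08520, a MYB-related transcription factor, fell to 38.04, 40.7 and 27.04 in ape2 H, against 78.4, 69.4 and 67.2 in ape2 L (-0.86 ± 0.14, adjusted p = 0.00276). PYE, a basic helix-loop-helix regulator of iron homeostasis that was chosen after its values were seen, was at 116, 99.1 and 136 in ape2 H, against 175, 175 and 205 in ape2 L (-0.62 ± 0.11, adjusted p = 0.00485). AT3G56200, of the amino acid transporter family, was at 109, 121 and 103 in ape2 H, against 202, 186 and 225 in ape2 L (-0.83 ± 0.11, adjusted p = 4.45e-04).

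Cold and abscisic acid response genes had negative changes in all 5 tested probe sets, with a median of -0.50, and 3 fell. The dehydrin COR47 had 379, 356 and 445 in ape2 H, against 617, 528 and 541 in ape2 L (-0.51 ± 0.10, adjusted p = 0.011). COR15B, a chloroplast protein of cold acclimation, had 887, 703 and 926 in ape2 H, against 1098, 1032 and 1195 in ape2 L (-0.41 ± 0.10, adjusted p = 0.0383). The dehydrin LTI30 had 26.7, 33.0 and 26.03 in ape2 H, against 65.8, 44.5 and 43.6 in ape2 L (-0.65 ± 0.18, adjusted p = 0.0492). The H arrays lay below the L arrays in all 3, a separation shared by nearly all calls. Without ape2 L 1 none of them was called, COR47 having an adjusted p of 0.0585, and 1 was called without ape2 L 3, ape2 H 1, ape2 H 2, Ws-2 L 1, Ws-2 L 2 or both second ape2 arrays. PUB19, a U-box ubiquitin ligase of abscisic acid and drought signalling, rose to 215, 216 and 239 in ape2 H, against 118, 110 and 132 in ape2 L (0.84 ± 0.09, adjusted p = 7.98e-05). It was the single call among 6 tested members of its family.

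Single genes of other stress and hormone pathways rose. JMT, the methyltransferase that makes methyl jasmonate, had 104, 76.0 and 87.5 in ape2 H, against 40.2, 49.5 and 45.5 in ape2 L (0.84 ± 0.11, adjusted p = 3.07e-04), while the other 2 tested jasmonate genes were not called. AT5G37670, a small heat shock protein, was dim in ape2 L, with 36.1, 38.7 and 36.4 in ape2 H, against 17.3, 19.5 and 9.78 in ape2 L (0.90 ± 0.17, adjusted p = 0.00808). It was the 1 call among 3 tested heat shock genes. Among 6 tested antioxidant genes 0 were called, although all had positive changes with a median of 0.12, and CCS, the copper chaperone of superoxide dismutase, had a change of 0.43 (adjusted p = 0.070). Among 8 genes of the plastid thioredoxin system 0 were called, with a median of 0.10. GSTU16, a glutathione transferase, rose by 0.52 ± 0.10 (adjusted p = 0.00851) to 261, 344 and 283 in ape2 H, against 205, 219 and 184 in ape2 L. The other 9 tested glutathione transferases were not called.

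Single cytochrome P450 and glycosyltransferase genes were among the rises in specialised metabolism. Cytochrome P450 genes outside the CYP71B family were not counted. CYP71B26 had 114, 118 and 120 in ape2 H, against 55.6, 60.4 and 66.1 in ape2 L (0.85 ± 0.08, adjusted p = 3.02e-05). AT3G44970, another cytochrome P450, had 81.0, 66.3 and 88.3 in ape2 H, against 34.8, 39.9 and 36.3 in ape2 L (0.91 ± 0.13, adjusted p = 7.97e-04). Of 12 tested CYP71B probe sets 2 rose, the second being CYP71B28 at 0.41 (adjusted p = 0.0206), a call lost (adjusted p up to 0.0972) without ape2 L 1, ape2 H 1, ape2 L 3 or ape2 H 3. UDP-glycosyltransferases attach sugars to small molecules. Of 26 tested probe sets with a UGT symbol 2 rose and the median was 0.05. Members that carry only a locus code are not in this count. UGT71B1 had 158, 153 and 169 in ape2 H, against 117, 105 and 106 in ape2 L (0.51 ± 0.08, adjusted p = 0.00168). UGT85A5 had 67.9, 66.95 and 60.5 in ape2 H, against 13.6, 36.3 and 37.6 in ape2 L (1.01 ± 0.22, adjusted p = 0.0148), and ape2 L 1 lay far below the other L arrays. Its call was lost without ape2 H 1 or ape2 H 2 (adjusted p up to 0.0718). In flavonoid synthesis 0 of 6 tested were called, with a median of 0.06.

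Gene families gathered by their symbols after the calls had been seen had few other calls. Such families are covered in part, since 1551 of the 13436 matched probe sets carry a symbol other than the locus code. Of 4 methionine aminopeptidases of the MAP1 family, which trim new proteins, 2 rose: the organelle enzymes MAP1B at 0.34 (adjusted p = 0.0402) and MAP1C at 0.32 (0.0471). Both calls were lost (adjusted p up to 0.204) without any 1 ape2 array or Ws-2 H 3, that of MAP1B also without Ws-2 H 1, and that of MAP1C also without any 1 Ws-2 L array. ALDH6B2, an aldehyde dehydrogenase of valine breakdown, was the call among 8 of its family, with 93.9, 113 and 114 in ape2 H, against 64.3, 78.5 and 69.6 in ape2 L (0.53 ± 0.13, adjusted p = 0.025), and it was lost without ape2 L 1, ape2 H 2, ape2 L 3 or ape2 H 3 (up to 0.105). The calls among falls were BGLU33 of 8 beta-glucosidases (-0.53, adjusted p = 0.00897), scpl50 of 20 serine carboxypeptidase-like genes (-0.66, 0.0336) and TUB5 of 7 tubulins (-0.36, 0.0453). The call of scpl50 was lost without ape2 L 1, ape2 H 2, ape2 L 3 or ape2 H 3 (adjusted p up to 0.143), and that of TUB5 without any 1 array except ape2 L 2 or ape2 H 1 (up to 0.176). BGLU33 was not called without both second ape2 arrays (0.0818). IQD proteins, which bind calmodulin, had negative changes in all 9 tested probe sets with a median of -0.23, and 0 were called. Among 5 xyloglucan endotransglucosylases and 6 RALFL signal peptides 0 were called. Of lists named by pathway, 1 of 3 glucosinolate genes rose (AT2G31790, 0.31, adjusted p = 0.0455) and 1 of 7 of glycolysis and the pentose phosphate pathway fell (AT1G64190, a 6-phosphogluconate dehydrogenase, -0.28, 0.0378). The call of AT2G31790 was lost without any 1 array except ape2 L 1, Ws-2 L 1 or Ws-2 L 3 (up to 0.169), and that of AT1G64190 without any 1 array except ape2 L 2, Ws-2 L 1, Ws-2 H 1 or Ws-2 H 2 (up to 0.156). For the circadian clock 0 of 2 were called.

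Other leading genes have roles that are less well defined. AT3G28270 had 243, 272 and 258 in ape2 H, against 58.3, 76.6 and 50.4 in ape2 L (1.91 ± 0.14, adjusted p = 2.40e-06). AT5G48490, a lipid transfer protein related to DIR1, fell to 208, 154 and 169 in ape2 H, against 561, 424 and 686 in ape2 L (-1.58 ± 0.19, adjusted p = 4.76e-04). AT4G33960 had 59.9, 37.5 and 82.0 in ape2 H, against 194, 143 and 163 in ape2 L (-1.38 ± 0.20, adjusted p = 0.00123). AT3G06070 changed by -0.92 ± 0.13 (adjusted p = 7.87e-04), AT3G04640 by -0.91 ± 0.16 (0.00385) and AT4G36500 by -0.80 ± 0.11 (5.30e-04). AT3G62260, a protein phosphatase of type 2C, rose by 0.83 ± 0.15 (adjusted p = 0.0068), and AT2G38870, a protease inhibitor, by 0.88 ± 0.17 (0.00738). ACA.l (AT1G13210), a P-type ATPase, was at 24.9, 38.01 and 9.59 in ape2 H, against 54.6, 77.4 and 54.5 in ape2 L (-1.16 ± 0.27, adjusted p = 0.0231), and leaving out any ape2 array except ape2 H 2 ended its call (up to 0.105). The other 4 genes of the largest changes were CLE27 and AT5G57760 among the falls, at -0.80 (adjusted p = 0.011) and -0.81 (0.0132), and AT4G27657 and AT5G05250, at 0.90 (0.0165) and -1.05 (0.049). CLE27 lost its call without both second ape2 arrays (adjusted p = 0.0536), AT5G57760 also without ape2 L 1 (adjusted p up to 0.0821), AT4G27657 without any ape2 array except ape2 L 3 and ape2 H 1 (adjusted p up to 0.133), and AT5G05250 without any ape2 array and without Ws-2 L 3, Ws-2 H 1 or Ws-2 H 3 (adjusted p up to 0.216).

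Probe sets with no gene named in the annotation used here were among the largest changes. Of the 4 given here only 245306_at changed by more than SAG29, at 1.98. 245306_at had signals of 1212, 1277 and 1377 in ape2 H, against 183, 164 and 174 in ape2 L, a rise of 2.82 ± 0.07 (adjusted p = 1.78e-12). 258321_at had 632, 701 and 620 in ape2 H, against 181, 164 and 137 in ape2 L (1.96 ± 0.10, adjusted p = 2.86e-08). In the other direction, 263046_at was at 38.2, 46.4 and 42.6 in ape2 H, against 193, 220 and 159 in ape2 L (-1.93 ± 0.17, adjusted p = 2.20e-05), and 260126_at was at 78.1, 72.1 and 67.5 in ape2 H, against 280, 231 and 260 in ape2 L (-1.69 ± 0.10, adjusted p = 6.98e-08). Groups that do not overlap were a condition for choosing these 4, so their separation is no added evidence.

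The same contrast in Ws-2 shares no arrays with the one in ape2. There 473 of the 16121 probe sets were called, or 2.93%, with 165 higher in H (1.02%) and 308 lower (1.91%). Both lines shared 214 calls, all in the same direction, which is 33.1% of the ape2 calls and 45.2% of the Ws-2 calls. Of the 647 ape2 calls, 586 (90.6%) had the same sign in Ws-2, against 60.3% of all tested probe sets. The change was larger in ape2 for 83.9% of the ape2 calls, and larger in Ws-2 for 76.7% of the Ws-2 calls, so each set of calls leans to the line in which it was chosen. Pearson's r between the changes was 0.397 over all tested probe sets and 0.821 over the ape2 calls, as a description across probe sets, which are not replicates.

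Several leading genes had changes of like size in Ws-2 on the scale used. CSLA01 changed by 1.83 ± 0.19 in Ws-2 (adjusted p = 2.13e-04), with signals of 833, 810 and 928 in Ws-2 H, against 173, 277 and 264 in Ws-2 L. SAG29 changed by 1.71 there (adjusted p = 8.35e-04), SWEET13 by -0.54 (0.00611), GH9C2 by -0.57 (0.00148), PORB by -0.55 (3.99e-04), LHCB4.3 by 0.39 (0.0031) and AT3G62950 by -1.76 (3.05e-05). The interaction of line and condition for these 7 genes had adjusted p-values of 0.889 or higher. Other genes were called in ape2 and not in Ws-2. AT1G57590 changed by 0.18 in Ws-2 (adjusted p = 0.614) and had an interaction of 0.89 (adjusted p = 0.118). AT3G26510 changed by -0.12 in Ws-2 (adjusted p = 0.733), with an interaction of 0.87 (0.0807). AT1G13650 changed by 0.65 in ape2 and -0.20 in Ws-2, with an interaction adjusted p of 0.0657. AT2G35820 changed by 0.64 in ape2 and -0.13 in Ws-2 (interaction adjusted p = 0.118), and AT3G15260, a protein phosphatase of type 2C, by 0.62 in ape2 and -0.20 in Ws-2 (interaction adjusted p = 0.118). AT5G60680 fell in both lines, by 0.60 in ape2 and 1.27 in Ws-2 on the log2 scale (interaction adjusted p = 0.0807). None of these interactions passed the threshold.

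Among gene groups, the ribosome assembly factors had a median change of -0.28 in ape2 and -0.07 in Ws-2, with 0 of 57 called in Ws-2 and 0 interactions called. Pectate lyases had medians of -0.20 in ape2 and -0.19 in Ws-2, with 5 falls in each line. Plastoglobule proteins had medians of 0.24 in ape2 and 0.09 in Ws-2, where 1 rose. Cold and abscisic acid response genes had medians of -0.50 in ape2 and -0.57 in Ws-2, where 2 fell. The plastid-encoded photosynthesis probe sets had medians of 0.06 in ape2 and -0.16 in Ws-2, with 34 of 43 positive in ape2 and 2 of 43 positive in Ws-2, 1 call in Ws-2 and 0 interactions called. A difference between the lines was not shown for any of these groups, and was not tested for a group as a whole. The interaction was tested per probe set and called for 3 of 16121, so 0 calls in a group cannot decide it.

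**Figure D4:**
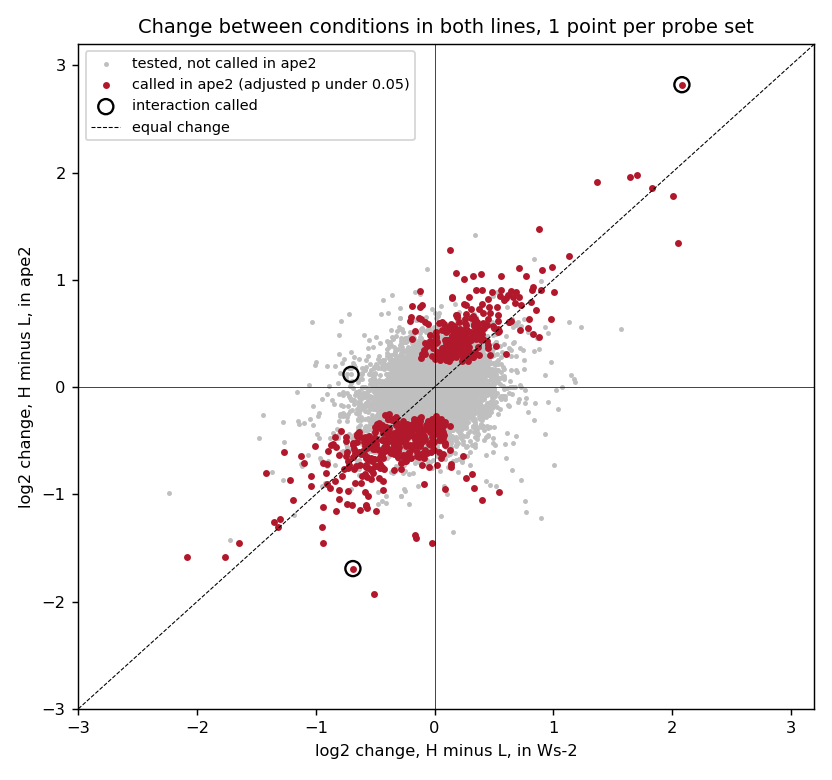
The log2 change, H minus L, in ape2 (vertical axis) against Ws-2 (horizontal axis) for 16121 probe sets, with the 647 ape2 calls in red, the 3 called interactions ringed and a dashed line of equal change. Most red points lie in the quadrants where both changes have the same sign, 586 of 647.

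The interaction was called for 3 of 16121 probe sets (0.0186%), with 2 positive (0.0124%) and 1 negative (0.0062%), and 1235 had an unadjusted p under 0.05. None of the 3 has a gene named here. They are 245306_at, whose rise was larger in ape2, 260126_at, whose fall was deeper in ape2, and 253971_at, which differed in Ws-2 and was not called in ape2.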

How the data were processed

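Per the submitters' processing notes the authors made the deposited signal intensities with MAS5. Its version is not given in the sources used here. MAS5 summarises each array by itself, and its scaling hides a change shared by most transcripts. Of 22810 probe sets 64 are controls. The annotation names 1 gene for 13513, several for 503 and none for 8730, and 13436 were matched to RefSeq. Probe sets with several genes were left unnamed.

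Without controls, the arrays were brought to a common trimmed mean of 100 (2% at each end). A filter for signals of at least 20 on 3 or more of the 12 arrays removed 6625 probe sets. limma 3.58.1 in R 4.3.3 fitted 4 group means to log2(signal + 10) with a robust, intensity-dependent prior. Tests were two-sided with Benjamini-Hochberg adjustment over all probe sets tested. The script was tested on simulated data. The number of arrays limits the precision.

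Genes named are the 15 largest rises and 15 largest falls with 1 gene, groups that do not overlap and a mean signal of 20 or more in both, up to 4 called members of each list, the measured envelope translocator, the 5 smallest interaction p-values among ape2 calls and 2 unnamed probe sets in each direction. Further called list members are named where a list is described. SPPA and PYE were named outside these rules, after their values were seen. The members and lists were chosen with earlier results of these data known. Lists for phosphate starvation and nitrogen assimilation had no named probe set. The salicylate and senescence lists had 1 tested probe set each and 0 calls. Alternatives were offsets of 1 and 32, no filter, a filter at 50, array weights, quantile normalization, a constant prior, no rescaling, a replicate block, only the groups compared and leaving out each array.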

Additional observations from a re-analysis of the deposited data

Results flagged for a closer look

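For 3 probe sets without a named gene the change between conditions differed between the lines by the limma interaction test. 253971_at had signals of 1279, 1242 and 1511 in ape2 H, against 1248, 1276 and 1176 in ape2 L, a change of 0.12 (adjusted p = 0.467), and signals of 491, 454 and 450 in Ws-2 H, against 764, 738 and 787 in Ws-2 L, a change of -0.70 (adjusted p = 1.03e-04). Its interaction was 0.82 ± 0.11 (SE, adjusted p = 0.0155). 260126_at had an interaction of -1.01 ± 0.14 (adjusted p = 0.0155), with a change of -1.69 in ape2 and -0.69 in Ws-2, where the signals were 97.8, 113 and 97.2 in H, against 183, 158 and 173 in L. 245306_at had an interaction of 0.74 ± 0.10 (adjusted p = 0.0177), with a change of 2.82 in ape2 and 2.08 in Ws-2, where the signals were 1566, 1578 and 1393 in H, against 351, 337 and 358 in L. Over 22 alternatives the interaction was called 19 times for 253971_at, 17 times for 260126_at and 14 times for 245306_at, with adjusted p-values up to 0.175.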

How the results depend on the processing

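The count for ape2, 647, was 406 with a constant prior, 383 with only the groups compared and 425 without both second ape2 arrays, an alternative chosen after seeing the data, and ranged from 366 to 672 on leaving out 1 array. The count for Ws-2, 473, was 305 with a constant prior and ranged from 264 to 505. It was 315, 274 and 264 without Ws-2 L 1, L 2 and L 3, and 284 and 271 without Ws-2 H 2 and H 3. The count of interactions, 3, was 0 with a constant prior and 10 with array weights, and ranged from 0 without Ws-2 L 2 or Ws-2 L 3 to 7 without Ws-2 H 1. Of the 647 ape2 calls, 205 (31.7%) were tested and called in every alternative, and of 81 called genes or probe sets singled out by the naming rule 51 kept the call wherever they were tested. Over 1859 comparisons of these 81 with an alternative in which they were tested, 1635 kept the call, 224 lost it and 0 changed direction. Deviations from group means correlated at 0.135, 0.366 and 0.074 between same-numbered ape2 arrays, and at 0.120, 0.043 and 0.045 in Ws-2. Between arrays with different numbers the correlations ranged from -0.251 to 0.146 in ape2 and from -0.112 to 0.072 in Ws-2. The labels do not say whether the numbers pair the arrays, and the main fit did not pair them. A replicate effect in ape2 was not tested beyond the block. With the replicate number as a block the counts were 614, 428 and 2. Whether the alternatives' differences have a cause in single arrays was not tested beyond these values. Dim transcripts have uncertain sizes, since they depend on the offset.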
